A study of Mus musculus with 8 samples.

Results

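Motor neurons are recognised by a small set of genes, and 8 of them are described here across 8 RNA-seq libraries of the mouse vagal region, the tissue beside somites 1 to 7 that was dissected at embryonic day 9.5. The genes were taken by symbol from the deposited expression table: Isl1, Isl2, Mnx1, Lhx3 and Lhx4, which encode homeodomain transcription factors, and Slc18a3, Chat and Slc5a7, which encode proteins of acetylcholine synthesis and transport. They make up 8 of the 55421 genes in the table, and 6 of the 15717 genes whose mean over the 8 libraries reached 1 TPM (an abundance scaled by gene length and library total), the level above which genes were tested. The 4 trex libraries came from Rdh10 trex/trex embryos, which carry this allele on both chromosomes, and the 4 wt libraries from wild type embryos, with no treatment and no other allele named in the labels. Rdh10 encodes the enzyme that makes retinaldehyde from retinol, the step before retinoic acid. Replicates are numbered 1 to 4 in each genotype by the replicate label, so that the wt libraries titled 5 to 8 are replicates 1 to 4. The labels do not say whether a library holds 1 embryo or a pool, nor which litters were used, so what p-values measure is the spread among these libraries, which may be technical.

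Motor neurons arise from the ventral neural tube, where Sonic hedgehog from the notochord and floor plate and retinoic acid from the somites induce progenitors that express Olig2. As these cells leave the cell cycle they switch on Isl1, Mnx1 and Lhx3, and a complex of Isl1, Lhx3 and the LIM-binding cofactor Ldb1 activates motor neuron genes, the cholinergic genes among them. At the level of the hindbrain and upper neck many motor neurons are visceral or branchial; these do not use Mnx1 or Lhx3 in the same way as somatic motor neurons. Several of the 8 genes are also known from other cells of this region: Isl1 from sensory ganglia, pharyngeal endoderm and heart precursors, Mnx1 from notochord and endoderm, and Lhx3 and Lhx4 from V2 interneurons and the pituitary.

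The start regions of 5 of the genes are shown because they belong to genes on which the results turn: those of Slc18a3 and Chat, which share a locus, and those of Lhx3, Lhx4 and Isl2. Each runs from 250 bases before to 50 bases after the transcript start (RefSeq, GRCm38.p6) and is written 5′ to 3′ on the gene's own strand. Slc18a3 lies at chr14:32464801-32465100 (minus strand), Chat at chr14:32465860-32466159 (minus), Lhx3 at chr2:26208200-26208499 (minus, the upstream one of its 2 windows), Lhx4 at chr1:155741978-155742277 (minus) and Isl2 at chr9:55540899-55541198 (plus). Capitals mark matches to 6 searched motifs on either strand.
Slc18a3: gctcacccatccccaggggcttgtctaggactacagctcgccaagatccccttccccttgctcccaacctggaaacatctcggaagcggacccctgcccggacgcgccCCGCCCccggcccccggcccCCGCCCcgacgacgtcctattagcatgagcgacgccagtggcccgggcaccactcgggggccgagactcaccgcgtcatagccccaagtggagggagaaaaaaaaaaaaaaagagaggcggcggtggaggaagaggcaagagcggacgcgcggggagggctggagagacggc
Chat: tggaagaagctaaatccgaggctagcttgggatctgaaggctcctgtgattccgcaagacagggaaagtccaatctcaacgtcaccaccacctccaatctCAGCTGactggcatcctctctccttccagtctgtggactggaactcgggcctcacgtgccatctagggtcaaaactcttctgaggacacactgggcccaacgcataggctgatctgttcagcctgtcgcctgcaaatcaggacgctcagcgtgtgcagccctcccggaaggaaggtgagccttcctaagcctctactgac
Lhx3: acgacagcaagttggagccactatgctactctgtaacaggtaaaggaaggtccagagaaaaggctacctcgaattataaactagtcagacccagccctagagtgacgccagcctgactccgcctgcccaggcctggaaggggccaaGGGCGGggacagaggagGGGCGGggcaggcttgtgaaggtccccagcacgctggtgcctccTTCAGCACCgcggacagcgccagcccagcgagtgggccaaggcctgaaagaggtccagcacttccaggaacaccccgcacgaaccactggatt
Lhx4: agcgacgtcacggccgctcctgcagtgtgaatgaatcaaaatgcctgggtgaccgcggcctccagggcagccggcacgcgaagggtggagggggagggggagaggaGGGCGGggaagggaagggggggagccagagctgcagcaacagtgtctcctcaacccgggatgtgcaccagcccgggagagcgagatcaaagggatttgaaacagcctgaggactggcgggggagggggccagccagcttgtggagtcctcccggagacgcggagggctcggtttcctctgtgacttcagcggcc
Isl2: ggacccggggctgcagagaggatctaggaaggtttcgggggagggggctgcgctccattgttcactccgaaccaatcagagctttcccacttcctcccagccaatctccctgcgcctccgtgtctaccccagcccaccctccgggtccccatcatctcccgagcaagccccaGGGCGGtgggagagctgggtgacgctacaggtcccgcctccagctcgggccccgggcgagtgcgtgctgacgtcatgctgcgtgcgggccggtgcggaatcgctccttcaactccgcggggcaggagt
The GC box GGGCGG, read in reverse complement on the other strand, was present in 6 of the 9 windows of the 8 genes (Lhx3 has 2), against 35.7% of all 32851 RefSeq windows of this length. The E-box CAGCTG was present in 3 of the 9 (Isl1, Mnx1 and Chat), against 16.3% of all windows. The proneural E-box CAGATG was present in 2 (the downstream window of Lhx3, and Slc5a7), against 17.2% of all windows. TTCAGCACC, the left arm of the element bound by the neuronal repressor REST, was present in 1, the upstream window of Lhx3, against 0.371% of all windows. The homeodomain core TAATTA was present in none of the 9, against 5.29% of all windows. The nuclear receptor motif AGGTCA was also present in none, against 16.3% of all windows. No motif overlaps another in the windows shown. The GC content of the windows ran from 44.7% (Slc5a7) to 71.0% (the downstream window of Lhx3), against a median of 52.7% over all windows. These are letter matches in short windows and do not show that a factor binds there.

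Of the 6 tested motor neuron genes 4 fell in trex: Slc18a3 by 4.95-fold, Lhx4 by 2.46-fold, Isl2 by 1.75-fold and Isl1 by 1.39-fold. Mnx1 and Lhx3 also had lower means in trex but were not called. None was higher in limma, at an unadjusted p below 0.05 either, and limma's voom on the recovered reads also called 4 of them lower, in a fit that called 5.15% of tested genes lower, and none higher. Among all tested genes 3.77% were called lower in trex and 4.94% higher, 8.71% in either direction (limma on log2(TPM + 1), adjusted p below 0.05). The median log2 difference of the 6 genes, trex minus wt, was -0.76, against 0.04 over all tested genes. All 4 trex libraries lay below all 4 wt libraries for 5 of the 6 tested genes, an arrangement that 8.95% of tested genes showed. Y-linked transcripts summed to at most 0.0662 TPM in the 4 trex libraries and in wt replicates 1 and 4, and to 162 and 158 TPM in wt replicates 2 and 3. With this sex difference as a covariate in limma none of the 6 genes was called, and 4 were lower at an unadjusted p below 0.05. The adjusted p was 0.0746 for Slc18a3 and 0.182 or more for the others. That fit called 39 of all tested genes, against 1369 without the covariate. Its log2 differences were -1.64 for Slc18a3, -0.97 for Lhx4, -0.70 for Isl2 and -0.42 for Isl1. Of all the related genes described further on, 6 were then called lower and 1 higher. In bulk tissue such as this, fewer cells of a type and less RNA per cell cannot be told apart.

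**Figure D1:**
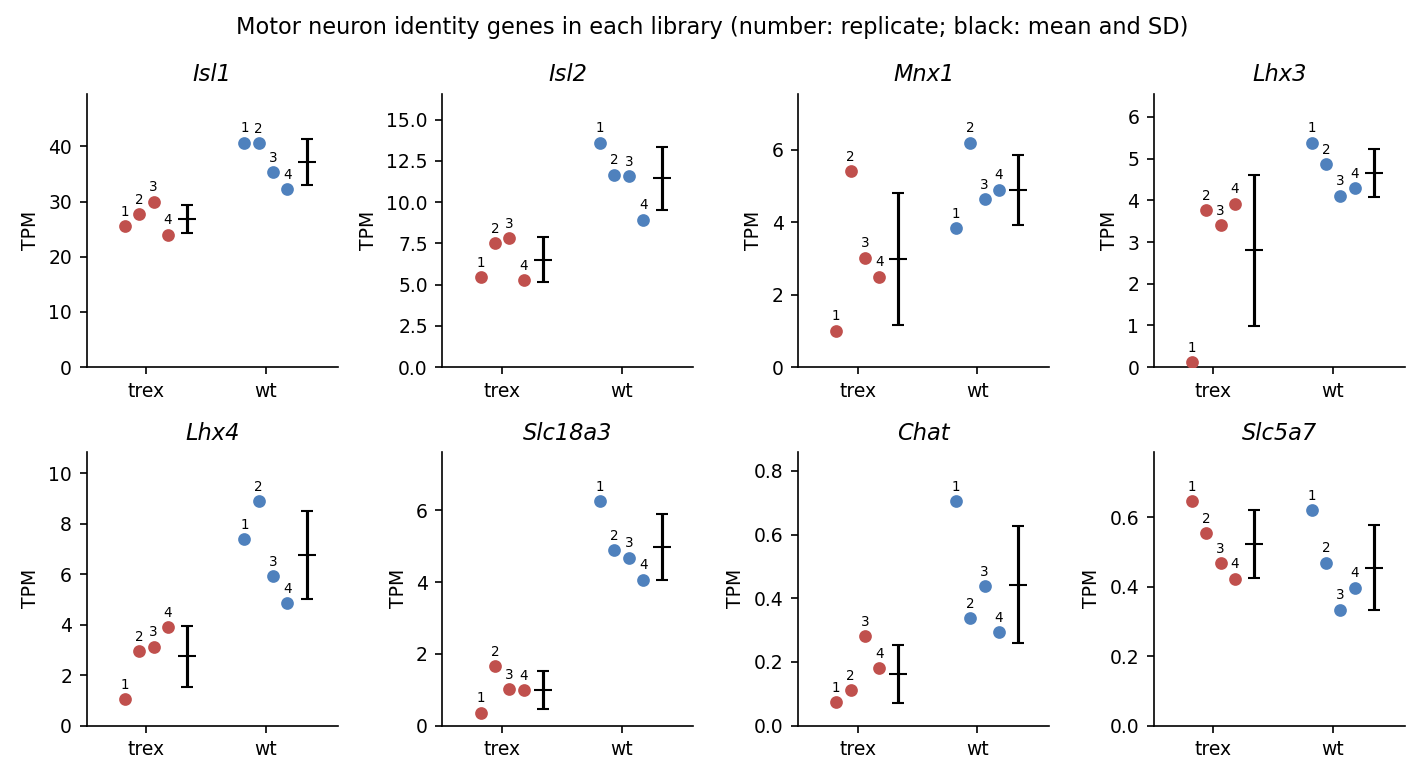
TPM of the 8 motor neuron identity genes in each library, trex left and wt right, with the replicate number above each point and the mean and SD in black. Slc18a3 shows the widest gap between the groups, Lhx3 has 1 trex library near 0, and the groups overlap for Mnx1 and Slc5a7.

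Isl1 (ENSMUSG00000042258, chromosome 13, 116298281 to 116309689, minus strand, mm10) encodes the LIM homeodomain factor that marks every newborn motor neuron. It stood at 25.6, 27.7, 30.0 and 24.0 TPM in trex replicates 1 to 4, against 40.6, 40.6, 35.3 and 32.2 TPM in wt replicates 1 to 4. The lowest wt library, replicate 4, was only a little above the highest trex library, replicate 3, and the trex values lay close together. The trex mean was 26.8 ± 2.58 TPM and the wt mean 37.2 ± 4.14 TPM (SD, n = 4 each, as for the other genes), 1.39-fold lower in trex. In limma the log2 difference of -0.46 ± 0.10 (SE) had an adjusted p of 0.0276. An exact two-sided permutation test of the TPM values gave p = 0.0286, the smallest that 4 against 4 allows; Isl2, Lhx3, Lhx4, Slc18a3 and Chat reached the same value among the 8 genes tested in this way. Isl1 was the most abundant of the 8 genes in every library, and it had the smallest fold among the 4 that were called.

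Isl2 (ENSMUSG00000032318, chromosome 9, 55538672 to 55546180, plus strand) encodes the paralogue that follows Isl1 in differentiating motor neurons. It stood at 5.45, 7.53, 7.82 and 5.28 TPM in trex, against 13.6, 11.7, 11.6 and 8.95 TPM in wt. As for Isl1, the groups did not overlap and wt replicate 4 was the lowest wt library. The means were 6.52 ± 1.34 TPM in trex and 11.4 ± 1.91 TPM in wt, with a limma log2 difference of -0.73 ± 0.16 (adjusted p = 0.0308). The ratio of Isl1 to Isl2 TPM was 3.67 to 4.69 in trex and 2.99 to 3.60 in wt, without overlap.

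Lhx4 (ENSMUSG00000026468, chromosome 1, 155698031 to 155751684, minus strand) and Lhx3 (ENSMUSG00000026934, chromosome 2, 26200212 to 26208289, minus strand) encode closely related LIM homeodomain factors that act together in motor neurons whose axons leave the neural tube ventrally. Lhx4 stood at 1.06, 2.94, 3.12 and 3.89 TPM in trex, against 7.37, 8.88, 5.91 and 4.86 TPM in wt. Trex replicate 1 was the lowest library and the groups did not overlap. The means were 2.75 ± 1.20 TPM in trex and 6.75 ± 1.75 TPM in wt, 2.46-fold lower in trex, with a limma log2 difference of -1.09 ± 0.28 (adjusted p = 0.0471).

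Lhx3 stood at 0.114, 3.77, 3.41 and 3.92 TPM in trex, against 5.38, 4.87, 4.11 and 4.30 TPM in wt. The value of trex replicate 1 corresponds to 2 reads, where the other trex libraries held 55 to 70 reads and the wt libraries 73 to 89. The 3 other trex libraries lay just below the lowest wt library, so that the groups did not overlap, and trex replicate 1 lay far below all others. The means were 2.80 ± 1.804 TPM in trex and 4.66 ± 0.577 TPM in wt, with a limma log2 difference of -0.78 ± 0.44 (adjusted p = 0.270). The predicted gene Gm27196 overlaps Lhx3 on the opposite strand and shares 188 exonic bases with it, and with no strand setting given, reads from the 2 cannot be told apart there. Without trex replicate 1 the trex mean was 3.70 ± 0.262 TPM (n = 3), 1.26-fold lower than in wt, and the log2 difference -0.27 (adjusted p = 0.175, in a fit that called 4.69% of tested genes lower). Lhx4 exceeded Lhx3 in each wt library, at 1.13 to 1.83 times its TPM. In trex replicates 2, 3 and 4 Lhx4 was at 0.780, 0.916 and 0.993 times Lhx3, and in trex replicate 1 at 9.28 times.

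Mnx1 (ENSMUSG00000001566, chromosome 5, 29473034 to 29478470, minus strand) encodes the homeodomain factor Hb9 that keeps somatic motor neurons from taking on interneuron features. It stood at 1.00, 5.41, 3.02 and 2.50 TPM in trex, against 3.84, 6.19, 4.64 and 4.89 TPM in wt. The groups overlapped, because trex replicate 2 exceeded 3 of the wt libraries. The means were 2.98 ± 1.83 TPM in trex and 4.89 ± 0.975 TPM in wt, with a limma log2 difference of -0.67 ± 0.32 (adjusted p = 0.198) (exact two-sided permutation p = 0.114). Without trex replicate 2 the log2 difference was -0.94 with an adjusted p of 0.0424 in limma, in a fit that called 7.72% of tested genes lower. Without trex replicate 1 the log2 difference was -0.38.

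The cholinergic genes differed from one another. Slc18a3 (ENSMUSG00000100241, chromosome 14, 32462438 to 32464850, minus strand) encodes the transporter that loads acetylcholine into synaptic vesicles and had the largest fold of the 8 genes. It stood at 0.359, 1.66, 1.02 and 0.988 TPM in trex, against 6.25, 4.90, 4.69 and 4.07 TPM in wt. These values rest on 5, 23, 13 and 14 reads in trex, against 82, 67, 66 and 57 reads in wt, and the lowest wt library held more than any trex library by a wide margin. The means were 1.00 ± 0.530 TPM in trex and 4.98 ± 0.923 TPM in wt, 4.95-fold lower in trex, with a limma log2 difference of -1.60 ± 0.22 (adjusted p = 0.00751). Without trex replicate 1 the fold was 4.08.

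Chat (ENSMUSG00000021919, chromosome 14, 32408203 to 32465989, minus strand) encodes choline acetyltransferase, which makes acetylcholine, and Slc18a3 lies within its bounds on the same strand. Chat stood at 0.0737, 0.111, 0.281 and 0.181 TPM in trex, against 0.704, 0.338, 0.437 and 0.293 TPM in wt, and rests on 2 to 7 reads per trex library and 8 to 18 reads per wt library. The 4 trex libraries lay below the 4 wt libraries, but trex replicate 3 and wt replicate 4 nearly met. At 0.162 ± 0.0910 TPM in trex against 0.443 ± 0.184 TPM in wt it was below the level for testing, and in a fit with no filter its adjusted p was 0.168 in limma, where 1.15% of genes were called lower and 5.60% had all trex libraries below all wt libraries. The 2 genes share no annotated exonic base. The ratio of Slc18a3 to Chat TPM was between 3.62 and 14.9 in trex and between 8.88 and 14.5 in wt, overlapping at these low read numbers. The non-coding gene Gm2990 overlaps the start of Chat on the opposite strand without shared exonic bases, and the strand setting of the counting is not given in the sources used here.

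Slc5a7 (ENSMUSG00000023945, chromosome 17, 54273590 to 54299034, minus strand) encodes the high-affinity choline transporter of cholinergic nerve endings. It stood at 0.645, 0.554, 0.468 and 0.422 TPM in trex, against 0.620, 0.469, 0.334 and 0.396 TPM in wt. The groups overlapped over most of their range, at means of 0.522 ± 0.0984 TPM in trex and 0.455 ± 0.123 TPM in wt (exact two-sided permutation p = 0.4). Slc5a7 was the single one of the 8 genes with a higher mean in trex, and it too was below the level for testing.

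In order of level, the wt libraries ran Isl1, Isl2, Lhx4, Slc18a3, Mnx1, Lhx3, Slc5a7 and Chat. Isl1 lay above Isl2, Isl2 above Lhx4, and Lhx3 above Slc5a7 without overlap between libraries, while Lhx4, Slc18a3, Mnx1 and Lhx3 overlapped their neighbours and so did Slc5a7 and Chat. In trex the order was Isl1, Isl2, Mnx1, Lhx3, Lhx4, Slc18a3, Slc5a7 and Chat. There Isl1 lay above Isl2 and Slc5a7 above Chat without overlap, and each other neighbouring pair overlapped. Variation between libraries was wider in trex for Mnx1, Lhx3, Lhx4 and Slc18a3, with coefficients of variation of 61.4%, 64.4%, 43.7% and 52.7%, against 19.9%, 12.4%, 26.0% and 18.5% in wt. Without trex replicate 1 the trex coefficients were 42.6%, 7.10%, 15.2% and 31.0% in the same order, so that Lhx3 and Lhx4 then varied less in trex than in wt. Variation was narrower in trex for Isl1, at 9.63% in trex and 11.1% in wt, and for Slc5a7, at 18.8% in trex and 27.1% in wt.

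The calls depended on single libraries for 3 of the 4 genes. Slc18a3 kept its call whichever library was left out, with adjusted p of at most 0.0385 in limma. Isl1 and Isl2 each lost it in 4 of the 8 cases, without trex replicate 4 or wt replicate 1, 2 or 3, with adjusted p up to 0.0989 and 0.101. Lhx4 lost it in 6 cases, all but those without trex replicate 1 or 2, with adjusted p up to 0.139. Slc18a3 was thus the single called gene of the 6 when trex replicate 4 or wt replicate 1, 2 or 3 was left out. In each of these fits 4 of the 6 were lower at an unadjusted p below 0.05 in limma. The calls over all tested genes also dropped there, from 1369 to 375, 462, 199 and 394 in that order. They were 592 without trex replicate 3 and 611 without wt replicate 4. Without trex replicate 2, 5 of the 6 genes and 2926 of all tested genes were called.

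**Figure D2:**
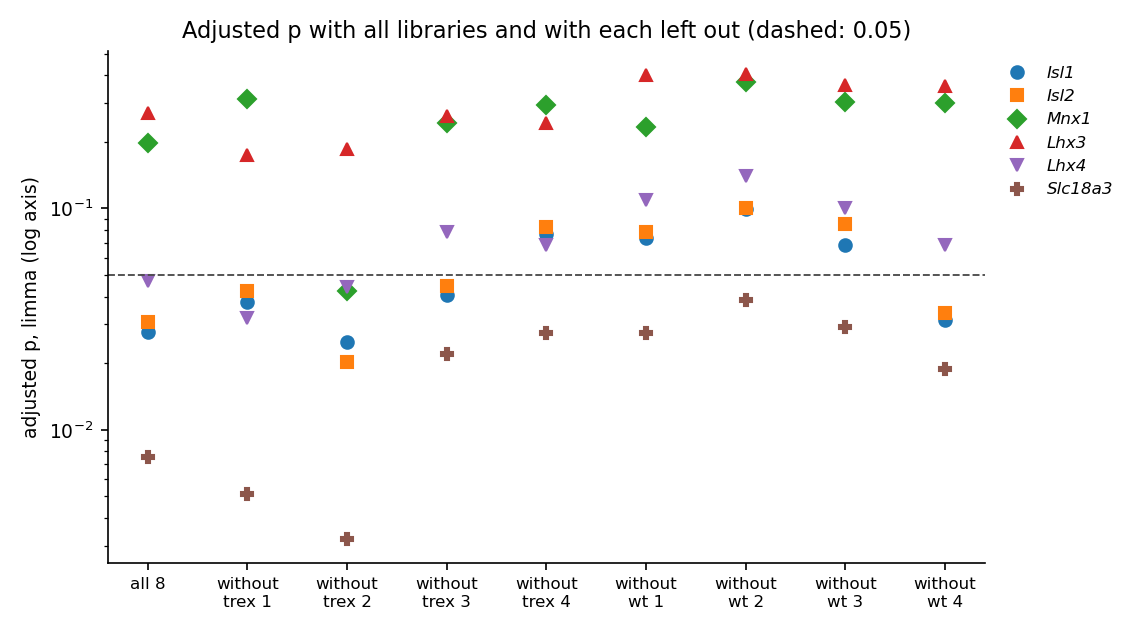
Adjusted p in limma (log axis) of the 6 tested motor neuron genes with all 8 libraries and with each library left out, the dashed line marking 0.05. Slc18a3 stays below the line throughout, with at most 0.0385, and Lhx3 stays above it.

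Among genes of motor neuron progenitors and of ventral patterning around them, Olig2, Neurog2, Nkx6-1 and Nkx2-2 were not called, while Pax6 and Neurog1 fell. Neurog1 is also on the sensory neuron list. Of the 15 progenitor and ventral patterning genes 4 fell, none rose and 11 were not called, with a median log2 difference of -0.53; at an unadjusted p below 0.05, 1 was higher, and voom called none higher. Like the 8 genes, these lists of related genes were assembled with earlier results of these data known. Olig2, the basic helix-loop-helix factor that defines motor neuron progenitors, stood at 27.3, 46.8, 27.1 and 30.0 TPM in trex, against 28.8, 26.8, 34.7 and 29.9 TPM in wt. The groups overlapped, with means of 32.8 ± 9.44 TPM in trex and 30.0 ± 3.33 TPM in wt and an adjusted p of 0.739 in limma. Neurog2, the proneural partner of Olig2 in these cells, averaged 46.9 ± 7.59 TPM in trex and 52.6 ± 5.71 TPM in wt (adjusted p = 0.353 in limma). Nkx6-1, which positions the domain, averaged 38.5 ± 7.26 TPM in trex and 44.3 ± 5.40 TPM in wt (adjusted p = 0.316, but 0.0496 and lower without trex replicate 2), and Nkx2-2, of the neighbouring domain below, 3.86 ± 1.46 TPM in trex and 4.55 ± 0.764 TPM in wt (adjusted p = 0.531). Pax6, which is induced by retinoic acid in the neural tube, was called: it stood at 17.9, 21.1, 19.8 and 15.0 TPM in trex, against 31.9, 30.1, 26.5 and 26.5 TPM in wt. That was 1.56-fold lower in trex (adjusted p = 0.0166 in limma), and the groups did not overlap; the call was lost without wt replicate 1 (adjusted p = 0.0509) or 2 (0.0693). Lhx5, of early interneurons, averaged 0.350 ± 0.233 TPM in trex and 3.65 ± 1.73 TPM in wt (adjusted p = 0.0130). Its values rest on 1, 6, 9 and 5 reads in trex, against 75, 78, 40 and 28 reads in wt. The call of Lhx5 was lost without wt replicate 2 (adjusted p = 0.0537 in limma). The number of these genes called lower was 7 without trex replicate 1 or 2, 2 without wt replicate 1 and 1 without wt replicate 2.

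Among factors of visceral and branchial motor neurons, Phox2a fell and Tbx20 did not pass the test. Phox2a, a homeodomain factor of these neurons and of autonomic precursors, stood at 2.47, 2.31, 4.17 and 3.26 TPM in trex, against 18.1, 14.3, 12.6 and 10.2 TPM in wt. No trex library came near the wt range. The fold was 4.52, the log2 difference -1.87 ± 0.20 and the adjusted p 0.00333 in limma, at most 0.0227 when 1 library was left out. Tbx20, a T-box factor of cranial motor neurons and of the heart, stood at 2.18, 4.59, 15.4 and 17.4 TPM in trex, against 5.20, 9.31, 5.43 and 15.2 TPM in wt, overlapping fully (adjusted p = 0.941). Of the 11 tested genes of this list 3 fell, Phox2a and Hoxb1 among them, and 1 rose. The riser was Gfra3, a receptor of the GDNF family, at 14.0 ± 3.35 TPM in trex against 2.91 ± 1.47 TPM in wt (adjusted p = 0.00734), and 2 genes were called higher without trex replicate 1 or 2. The median was -0.08.

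Genes of LIM complexes and of motor neuron maturation, a list of 20 tested genes that also holds Onecut, Foxp and Ebf factors, had a median near that of all genes, at -0.00. Lmo3, Onecut2, Onecut3 and Foxp4 fell, Ldb2 and Rlim rose, and the others were not called. Ldb1, the dimeric cofactor that joins Isl1 to Lhx3, stood at 233.9, 253.01, 228.03 and 228.7 TPM in trex, against 242.997, 217.2, 221.2 and 204.2 TPM in wt, overlapping (adjusted p = 0.338 in limma). Lmo4, a LIM-only protein that competes for Ldb1, averaged 136.4 ± 21.7 TPM in trex and 119.1 ± 1.99 TPM in wt (adjusted p = 0.235). Ldb2, the paralogue of Ldb1, averaged 44.5 ± 12.0 TPM in trex and 24.8 ± 0.838 TPM in wt, without overlap and with a log2 difference of 0.79 (adjusted p = 0.0213). Rlim, a ubiquitin ligase that targets these cofactors and is X-linked, averaged 87.9 ± 3.38 TPM in trex and 75.2 ± 0.864 TPM in wt, with a log2 difference of 0.22 (adjusted p = 0.02003). Lmo3, another LIM-only protein, averaged 3.10 ± 0.637 TPM in trex and 5.54 ± 1.05 TPM in wt (adjusted p = 0.0416). The Onecut factors act upstream of Isl1 in motor neurons. Onecut2 stood at 2.16, 3.28, 3.69 and 2.97 TPM in trex, against 9.59, 8.95, 7.49 and 6.36 TPM in wt, and fell 2.68-fold with an adjusted p of 0.00826 in limma. Onecut1 averaged 1.93 ± 0.975 TPM in trex and 4.03 ± 0.672 TPM in wt without overlap between libraries, and was not called (adjusted p = 0.0910). Without trex replicate 4 or wt replicate 1, 2 or 3, 1 of the 20 was called lower in limma in each case and none higher, where 2 to 4 were higher at an unadjusted p below 0.05. Without trex replicate 3, 2 were called lower, and without wt replicate 4, 1 was called higher.

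Genes of cholinergic transmission and motor axons moved both ways, with 6 of 25 tested genes lower, 4 higher and a median of 0.03. Ache, which breaks down acetylcholine and is expressed well beyond neurons, averaged 1.75 ± 0.318 TPM in trex and 2.00 ± 0.675 TPM in wt (adjusted p = 0.750 in limma). Prph, an intermediate filament of peripheral and motor axons, stood at 1.21, 1.22, 1.60 and 1.96 TPM in trex, against 3.96, 2.56, 2.06 and 2.41 TPM in wt, without overlap but not called (adjusted p = 0.0915). Chrnb4, a nicotinic receptor subunit of autonomic neurons, stood at 0.978, 1.63, 2.03 and 1.10 TPM in trex, against 10.4, 11.9, 9.20 and 8.09 TPM in wt. It fell 6.91-fold (adjusted p = 0.00107 in limma), and its neighbour Chrna3 had a log2 difference of -2.66 ± 0.19. The 4 that rose were Plxna4, Robo2, Slit3 and Unc5c, which encode receptors and a ligand of axon guidance that mesenchymal cells also express; they were chosen for mention after their values were seen. None of the 25 was called higher in limma without trex replicate 4 or wt replicate 1, 2 or 3, where 8 to 10 were higher at an unadjusted p below 0.05, and 2 were called without wt replicate 4.

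**Figure D3:**
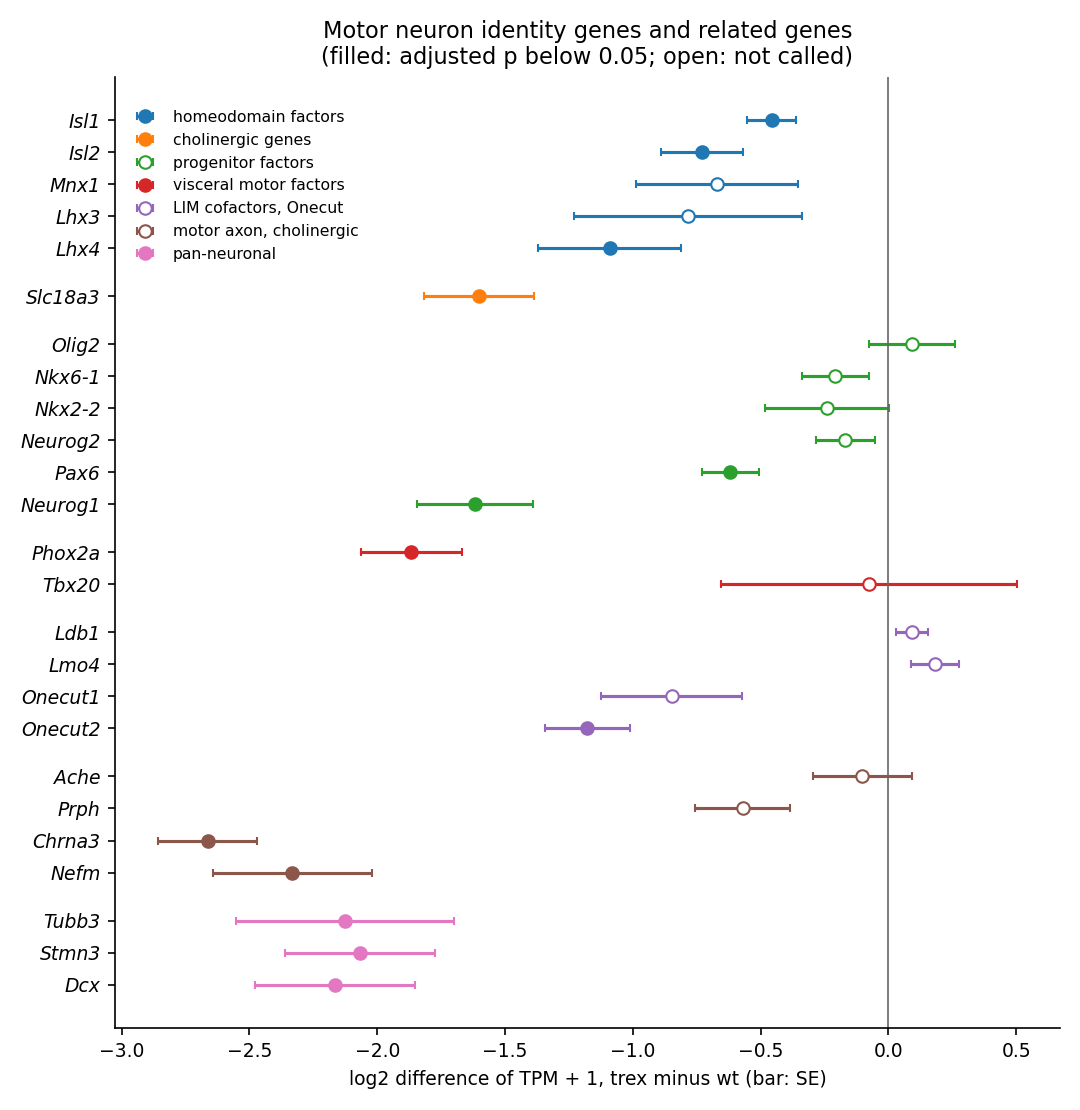
Log2 difference of TPM + 1, trex minus wt, with its SE, for the 6 tested motor neuron genes and for related genes, coloured by group; filled points passed an adjusted p of 0.05 in limma. Olig2, Nkx6-1, Neurog2, Ldb1 and Ache lie near 0, while Chrna3, Nefm, Tubb3, Stmn3 and Dcx lie below -2.

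Genes common to all young neurons were lower in trex. Of 20 tested pan-neuronal genes 15 fell, none rose (none at an unadjusted p below 0.05 or in voom) and 5 were not called. Their median log2 difference was -1.58. The summed level of the 23 measured genes of the list was 277.3 to 484.2 TPM in trex and 777.4 to 1123 TPM in wt. Tubb3, the neuronal tubulin, stood at 20.1, 82.5, 82.6 and 66.1 TPM in trex, against 311.7, 305.6, 201.9 and 184.2 TPM in wt, 3.99-fold lower in trex with an adjusted p of 0.0236 in limma. Trex replicate 1 was lowest, and wt replicates 1 and 2 were higher than wt replicates 3 and 4. Stmn3 and Dcx, which encode microtubule proteins of growing neurites, fell 4.44-fold and 5.57-fold. With the sex covariate, in a fit that called 39 of all tested genes, none of the 20 was called in limma. In that fit 19 were lower at an unadjusted p below 0.05. With the replicate number as a block 9 were called, in a fit that called 687 of all tested genes. The number of these genes called was 6 when trex replicate 4 was left out, and 7, 4 and 8 when wt replicate 1, 2 or 3 was.

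Set against Tubb3 in the same library, the 8 genes separated. Isl1 was at 127%, 33.5%, 36.3% and 36.3% of the TPM of Tubb3 in trex, against 13.0%, 13.3%, 17.5% and 17.5% in wt. Isl2 was at 27.1%, 9.12%, 9.48% and 7.99% in trex, against 4.36%, 3.82%, 5.73% and 4.86% in wt. For both genes, and for Mnx1 (3.65% to 6.55% in trex, 1.23% to 2.66% in wt), Lhx4 (3.56% to 5.88% in trex, 2.37% to 2.93% in wt) and Slc5a7 (0.566% to 3.20% in trex, 0.153% to 0.215% in wt), every trex library had the higher ratio. Slc18a3 was at 1.78%, 2.01%, 1.23% and 1.49% in trex, against 2.01%, 1.60%, 2.32% and 2.21% in wt, and Chat at 0.134% to 0.366% in trex and 0.110% to 0.226% in wt. Both overlapped between the genotypes, and so did Lhx3, with 0.565% in trex replicate 1 and 4.12% to 5.92% in the other trex libraries, against 1.59% to 2.33% in wt. These ratios are descriptions, and trex replicate 1, which had the least Tubb3, had the highest ratio for Isl1, Isl2, Chat and Slc5a7.

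**Figure D4:**
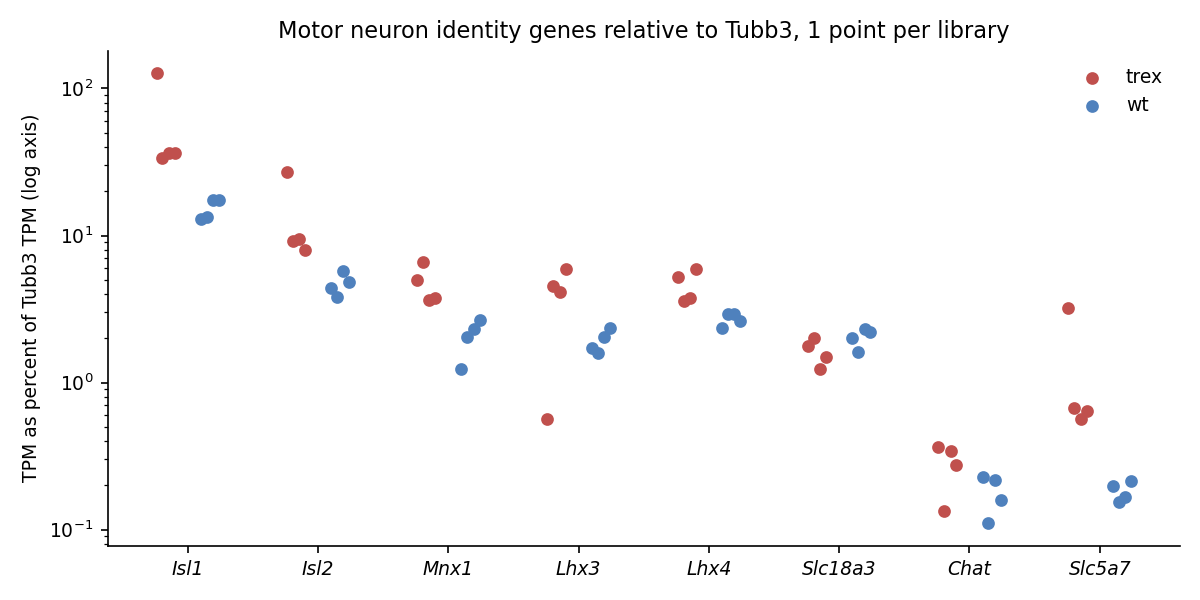
TPM of each of the 8 genes as a percent of the TPM of Tubb3 in the same library (log axis), trex left and wt right of each label. Isl1, Isl2, Mnx1, Lhx4 and Slc5a7 have higher ratios in every trex library, while Lhx3, Slc18a3 and Chat overlap between the genotypes.

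Markers of the other cells known to express these genes were measured beside them, and their part in the differences was not tested. The counts that follow are of tested genes and leave out the 8 genes themselves. The summed levels take in every other measured gene of a list, tested or not. Of 9 sensory neuron genes 4 fell and 1 rose with a median of -0.44. The summed level of the list was 84.4 to 138.7 TPM in trex and 124.7 to 184.3 TPM in wt. Neurod1, a basic helix-loop-helix factor of young sensory neurons, averaged 4.22 ± 1.22 TPM in trex and 16.9 ± 5.63 TPM in wt (adjusted p = 0.00942 in limma), and Pou4f1, which marks sensory ganglia, 6.40 ± 1.44 TPM in trex and 4.94 ± 0.862 TPM in wt (adjusted p = 0.237). Of 14 genes of heart precursors and pharyngeal mesoderm 2 fell and 2 rose with a median of -0.02, at 344.1 to 457.7 TPM in trex and 324.9 to 388.3 TPM in wt. Of 13 genes of pharyngeal and foregut endoderm 2 fell and 1 rose with a median of 0.14, at 349.6 to 422.7 TPM in trex and 350.0 to 392.9 TPM in wt. Of 9 genes of notochord and floor plate 1 fell and none rose with a median of -0.02, at 225.7 to 268.6 TPM in trex and 236.9 to 251.1 TPM in wt. Shh, the signal that induces motor neuron progenitors, averaged 42.7 ± 0.876 TPM in trex and 43.4 ± 2.44 TPM in wt (adjusted p = 0.786). These small counts moved with single libraries. Without trex replicate 3 or 4 or any 1 wt library, no sensory gene was called higher and the heart precursor genes had at most 1 called lower; the call in the notochord list, Foxj1, was kept only without trex replicate 2.

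Pou1f1, which defines cell types of the pituitary, was at 0 in all 8 libraries. These cover only embryonic day 9.5 and the tissue beside somites 1 to 7, so this value does not test a pituitary source of Lhx3 or Lhx4. Of the 3 tested pituitary genes besides Lhx3 and Lhx4, 1 rose and none fell. It was Pitx1, which limb and oral tissue also express, at 2.28 ± 1.55 TPM in trex against 0.279 ± 0.213 TPM in wt (adjusted p = 0.0458 in limma), and it kept its call only without trex replicate 1 or 2. The 3 other tested genes of V2 interneurons were not called, and their list without Lhx3 and Lhx4 summed to 30.3 to 33.1 TPM in trex and 27.1 to 31.97 TPM in wt. Among 7 genes of sympathetic and other catecholamine cells 4 fell and 1 rose, with Insm1, a zinc finger factor of neuroendocrine cells and newborn neurons, at 5.78 ± 3.07 TPM in trex against 23.3 ± 4.56 TPM in wt (adjusted p = 0.0213 in limma). Without trex replicate 4 or wt replicate 1, 2 or 3 the list had 1 gene called lower, and Insm1 was not called (adjusted p up to 0.0778).

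Markers of position along the body axis also differed between the genotypes. Of 7 tested Cdx genes and Hox genes of the caudal spinal cord 5 rose and 1 fell, with a median of 2.66. The mean log2(TPM + 1) of the 9 measured genes of this list was 3.30 to 3.74 in trex, against 1.20, 0.903, 2.33 and 2.28 in wt replicates 1 to 4. Of 10 hindbrain genes 5 fell and 1 rose with a median of -0.32, at a mean log2(TPM + 1) of 4.55 to 5.18 in trex and 4.74 to 4.95 in wt. The number of caudal genes called higher was 3 without trex replicate 1, 3 or 4 or wt replicate 1 or 3, and the number of hindbrain genes called lower was 3 without trex replicate 3 and 2 without trex replicate 4 or wt replicate 1, 2 or 3. The part of the axial level in the motor neuron differences was not tested.

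**Figure D5:**
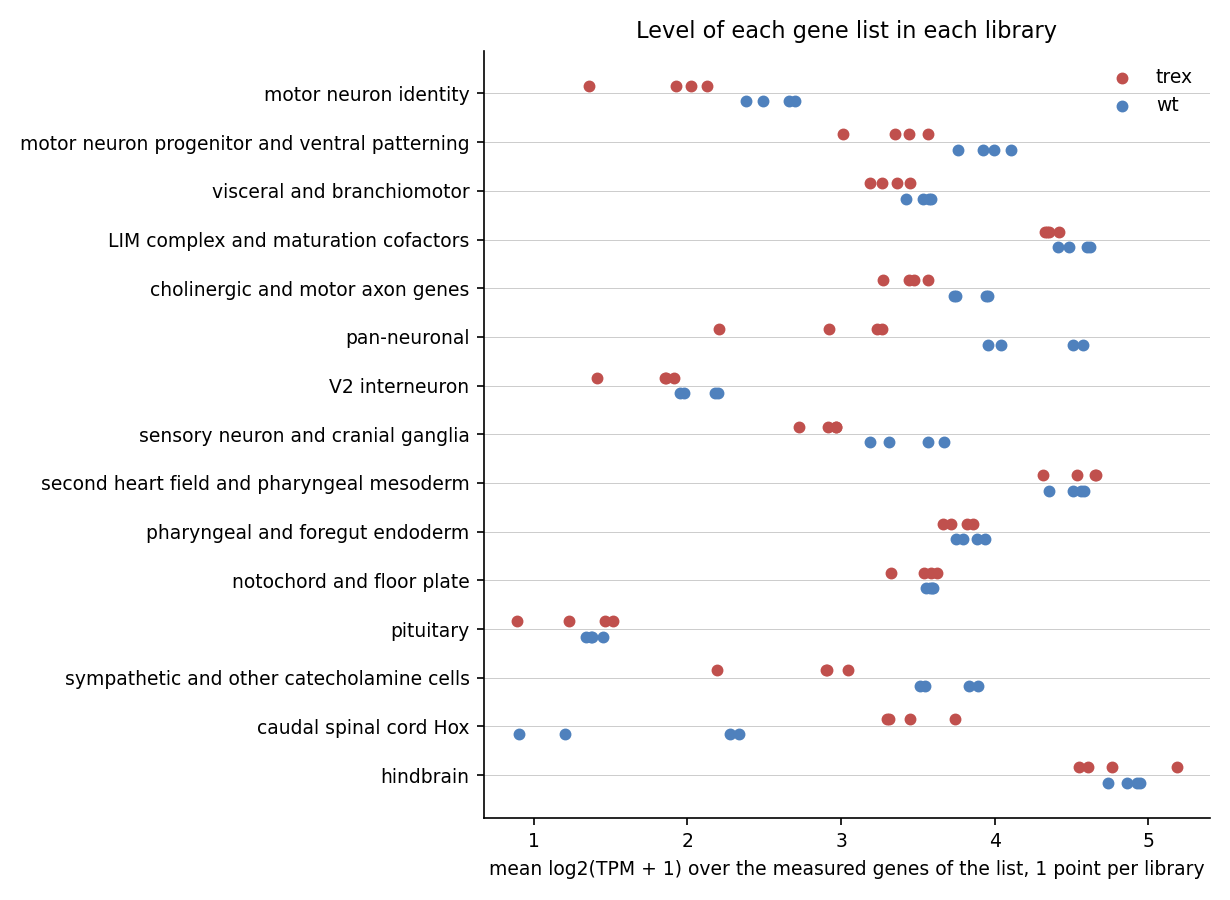
Mean log2(TPM + 1) of the measured genes of each list, with 1 point per library, trex drawn above wt. The motor neuron genes lie at 1.36 to 2.13 in trex and 2.38 to 2.70 in wt, without overlap. The progenitor, cholinergic and axon, pan-neuronal, sensory, V2 interneuron and sympathetic lists are also lower in trex without overlap. The lists are drawn with motor neuron genes left in: the sensory list holds Isl1 and Isl2, and the V2 list Lhx3 and Lhx4. Without them the summed levels of these 2 lists overlap, at 84.4 to 138.7 TPM in trex and 124.7 to 184.3 TPM in wt (sensory) and 30.3 to 33.1 TPM in trex and 27.1 to 32.0 TPM in wt (V2). The caudal Hox list is higher in trex without overlap. Second heart field, endoderm and notochord genes overlap, as do the remaining lists.

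Among tested genes outside the 8, those whose profile over the 8 libraries was nearest to the mean profile of the 6 tested motor neuron genes were Kcne1l, Rgs16, Jakmip2, Trp53i11, Crmp1 and Lrrn1. Their root mean square distances in centred log2(TPM + 1) were 0.0778, 0.0852, 0.0862, 0.0935, 0.0951 and 0.0966. Crmp1, a protein of growing axons, averaged 33.7 ± 8.07 TPM in trex and 57.3 ± 6.82 TPM in wt. Rgs16, which shortens G protein signals, averaged 17.2 ± 5.60 TPM in trex and 29.0 ± 2.56 TPM in wt. They were selected for this likeness, so their differences are a description.

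The libraries had 20928982 to 23648647 recovered reads and correlated at 0.964 to 0.988 within trex, 0.979 to 0.987 within wt and 0.944 to 0.981 between the genotypes. The share of TPM from mitochondrial genes was 2.61%, 7.15%, 4.82% and 4.50% in trex and 6.73% to 7.95% in wt, and its part in the differences was not tested. Rdh10 itself averaged 76.0 ± 20.2 TPM in trex, against 38.8 ± 2.20 TPM in wt (adjusted p = 0.0126 in limma); the labels do not give the lesion of the allele, so this level does not check them.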

How the data were processed

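RNA was measured in 4 trex and 4 wt libraries of the vagal region, with stranded, poly-A selected libraries per the labels' protocols. The authors deposited TPM values, 1 column per library, each summing to 1000000. CASAVA 1.8.2, STAR and mm10 were used per the submitters' processing notes; not given in the sources used here are the counter, its strand setting, the annotation and the gene lengths, and overlapping or antisense genes may share reads. Symbols and coordinates came from GENCODE M21 (55240 of 55421 identifiers matched) and promoters from RefSeq GRCm38.p6, where all 8 genes matched. Multiplied by gene length, 98.7% to 98.9% of low values (up to 200 reads) were whole multiples of 1 step within 0.001 read; these recovered reads give depth, cover counting error only, and served an added alternative.

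Genes with a mean TPM of at least 1 were tested with limma 3.58.1 in R 4.3.3 (lmFit, eBayes with trend) on log2(TPM + 1), a scale that shrinks differences of low genes, two-sided, with Benjamini-Hochberg adjustment over 15717 genes. Adjusted p values come from this fit wherever no other is named. Folds are ratios of mean TPM, and errors are SD unless SE is written. The step was tested on simulated data. Beside it, an exact permutation test of the 70 divisions of 4 against 4 was run for each of the 8 genes.

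The 8 genes and the 14 related lists were chosen with earlier results of these data known. Named genes were the 8, up to 3 called genes of each list by smallest p, a fixed set of 18, and the 6 nearest profiles; predicted genes were left out of the last, and other genes were picked once their values had been seen. Alternatives were a pseudocount of 0.1 or 5, a filter at 5 TPM or none, median-of-ratios and quantile scaling, TPM rescaled after removing globin, mitochondrial, X and Y genes, robust or trend-free eBayes, array weights, voom on recovered reads, the replicate number as a block, and leaving out each library. Sex as a covariate, the 6 libraries with a Y-linked sum below 1 TPM, and voom without a filter were added after seeing the data. Some genes of the related lists enter the counts but are not reported here by name.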

Additional observations from a re-analysis of the deposited data

Results flagged for a closer look

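Among 150 sets of 4 values (the motor neuron genes, the named related genes and the list levels in each genotype), 8 had a highest or lowest library far from the other 3 by Dixon's 95% criterion, which flags about 1 set in 20 by chance. The number of flags is near that rate. The sets are also not independent, because the list levels contain named genes. Of the 8, 5 were in trex replicate 1. Lhx3 was at 0.114 TPM there, where the other trex libraries held 3.41 to 3.92 TPM. Rdh10 was at 106.0 TPM (others 62.7 to 69.0) and Lmo4 at 168.8 TPM (others 124.3 to 127.7), both highest. The mean log2(TPM + 1) of the V2 interneuron list was 1.41 (others 1.85 to 1.91) and that of the sympathetic and catecholamine list 2.19 (others 2.90 to 3.05), both lowest.

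Olig2 was highest in trex replicate 2, at 46.8 TPM where the other trex libraries held 27.1 to 30.0 TPM. Stmn4, a pan-neuronal gene, was highest in trex replicate 3 at 5.22 TPM (others 2.76 to 3.17). Foxj1, of the floor plate list, was highest in wt replicate 1 at 7.998 TPM (others 5.58 to 5.98).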

How the results depend on the processing

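The log2 difference of each of the 6 tested genes kept its sign under every alternative run. The count of 4 called genes became 1 with no filter, 2 with a filter at 5 TPM (which leaves out Mnx1, Lhx3, Lhx4 and Slc18a3) and 0 in limma with sex as a covariate and in the 6 libraries low in Y-linked transcripts, where 4 were lower at an unadjusted p below 0.05, and it ranged from 1 to 5 with 1 library left out. Of all tested genes, 1369 were called, 694 with no filter, 5524 with array weights, 39 with the sex covariate, 8 in the 6 libraries and 199 to 2926 with 1 library left out. Of the related genes 46 were lower and 18 higher. With the sex covariate 6 were lower and 1 higher, and in the 6 libraries 0 and 1, against 55 lower and 26 higher at an unadjusted p below 0.05 there. Array weights gave 37 higher, and leaving out 1 library gave 17 to 55 lower and 6 to 25 higher.

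With no filter the adjusted p passed 0.05 for Isl1 (-0.46, adjusted p = 0.0519), Isl2 (-0.73, 0.0612) and Lhx4 (-1.09, 0.0965). Lhx4 also lost its call with a pseudocount of 0.1 (-1.37, 0.0602) and without a trend (-1.09, 0.0603). With the sex covariate the differences were -0.42 for Isl1 (0.182), -0.70 for Isl2 (0.185), -0.97 for Lhx4 (0.243) and -1.64 for Slc18a3 (0.0746). In the 6 libraries they were -0.42 (0.295), -0.70 (0.309), -0.97 (0.347) and -1.64 (0.166), with fewer samples. Array weights called Mnx1 (-0.60, 0.0188). For the filter the larger number of genes adjusted over is part of the construction; for the others the cause was not tested. With 1 library left out the differences ranged from -0.52 to -0.41 for Isl1, -0.83 to -0.65 for Isl2, -0.94 to -0.38 for Mnx1, -0.98 to -0.27 for Lhx3, -1.24 to -0.82 for Lhx4 and -1.75 to -1.43 for Slc18a3.

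Libraries with the same replicate number deviated together with correlations of 0.162, -0.02, -0.00 and 0.252. Pairs with different numbers ran from -0.261 to 0.155, so the same-number pairs of replicates 1 and 4 exceeded this range and those of 2 and 3 lay within it. The main fit did not take the numbers to pair the libraries. With the replicate number as a block 687 genes were called, and of the 4 motor neuron genes Lhx4 was not (-1.09, adjusted p = 0.0866). Rescaling by median of ratios, quantiles or without globin, mitochondrial and sex chromosome genes put the median of all genes at 0.01, -0.01 and 0.00 and kept all 4 calls. Depth limits the genes with few reads, which per trex library were 2 to 7 for Chat, 5 to 23 for Slc18a3 and 14 to 21 for Slc5a7, and a mean TPM under 1 left Chat and Slc5a7 untested.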

Other observations

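Reads behind the values differed widely between the 8 genes: over the 4 libraries of a genotype, Isl1 held 2401 reads in trex and 3343 in wt, Isl2 323 in trex and 569 in wt, and Lhx3 193 in trex and 322 in wt. The non-coding gene Gm2990, which starts within Chat on the opposite strand, was named after its values were seen. It stood at 0.256 to 0.417 TPM in trex (2 to 3 reads) and 0.814 to 1.52 TPM in wt (6 to 12 reads), without overlap, and was below the level for testing.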
